A study of Mus musculus with 2 samples.

Results

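Potassium channel genes were examined in a map of accessible chromatin from wild-type mouse striatum at stage E14.5, in mid-gestation. The members were the protein-coding RefSeq genes whose symbols begin with Kcn followed by a subfamily letter (a, b, c, d, f, g, h, j, k, m, n, q, s, t, u or v) and a further character. There were 84 such genes among 21774 protein-coding genes on assembled chromosomes. They lay on 19 chromosomes and fell into 18 subfamilies. Nuclei were profiled by single-nucleus ATAC-seq, in which a transposase cuts and tags open DNA inside droplet-barcoded nuclei. The 2 libraries formed 1 group, with the strain background given as C57BL/6J and CD1. Genotype, stage and tissue were the same in both, so no comparison between conditions exists, and the labels do not say whether the libraries came from separate embryos. The deposited result was 1 list of 87174 peak positions on mm10, without counts, scores, nuclei or samples. No value below therefore has a replicate error or a depth, and none can be assigned to a cell type.

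Potassium channels let potassium leave or enter cells and set the resting potential, spike shape and firing pattern of neurons. Voltage-gated channels are tetramers of pore-forming subunits, and inward rectifiers and two-pore-domain channels carry resting currents. Slo channels respond to ions such as calcium or sodium inside the cell, and SK channels open with calcium. Silent subunits and beta subunits modify the partners with which they assemble. In the striatum, inward rectifier and A-type currents are known for shaping the delayed spiking of projection neurons. At the embryonic stage studied here, progenitors of the ganglionic eminences and young neurons are both present.

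Marker genes were used to describe the tissue of origin. All 11 markers of the striatal projection neuron lineage and all 6 of ganglionic eminence progenitors had a peak within 1 kb of a gene end, as did all 5 of the cortical excitatory lineage. For other cell types the counts were 4 of 6 for microglia, 4 of 5 for endothelial and mural cells and 1 of 3 for erythroid cells. Of all protein-coding genes, 67.3% had such a peak. The list thus held peaks at markers of several cell types, and the part each type had in the potassium channel peaks was not tested.

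Promoters of 6 members are printed to show the range of sequence at channel gene starts with and without a peak. Each is the 250 bases before the annotated start, from RefSeq on GRCm38.p6, written 5′ to 3′ on the gene's strand, with every CpG dinucleotide in capitals. Kcna3, Kcna5 and Kcna10 belong to the Shaker-related voltage-gated subfamily, and Kcnj10, Kcnj8 and Kcnj15 to the inward rectifiers. In each trio the first start had a peak and many CpGs, the second had a peak and few CpGs, and the third had no peak within 1 kb.
Kcna3 (chr3:107035912-107036161, plus strand): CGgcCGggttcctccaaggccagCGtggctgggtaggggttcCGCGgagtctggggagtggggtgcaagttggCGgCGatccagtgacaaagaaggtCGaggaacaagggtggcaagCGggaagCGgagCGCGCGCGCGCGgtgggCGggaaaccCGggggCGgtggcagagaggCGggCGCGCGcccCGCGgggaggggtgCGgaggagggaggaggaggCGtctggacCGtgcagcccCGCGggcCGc
Kcna5 (chr6:126535556-126535805, minus strand): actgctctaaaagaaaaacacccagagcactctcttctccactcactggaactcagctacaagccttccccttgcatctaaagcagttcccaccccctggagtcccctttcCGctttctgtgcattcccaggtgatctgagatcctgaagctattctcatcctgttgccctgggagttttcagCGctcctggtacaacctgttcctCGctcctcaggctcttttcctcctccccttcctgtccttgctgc
Kcna10 (chr3:107182893-107183142, plus strand): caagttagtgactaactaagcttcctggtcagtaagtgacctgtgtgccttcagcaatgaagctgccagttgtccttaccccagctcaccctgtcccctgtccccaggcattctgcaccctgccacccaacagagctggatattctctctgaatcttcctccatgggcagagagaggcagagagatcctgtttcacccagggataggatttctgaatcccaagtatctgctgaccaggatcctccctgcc
Kcnj10 (chr1:172340960-172341209, plus strand): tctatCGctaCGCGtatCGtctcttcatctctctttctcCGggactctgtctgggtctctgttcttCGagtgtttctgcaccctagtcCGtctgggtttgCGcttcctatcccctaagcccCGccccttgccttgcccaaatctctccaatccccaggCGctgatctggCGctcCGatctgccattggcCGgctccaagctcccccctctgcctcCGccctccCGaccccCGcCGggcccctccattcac
Kcnj8 (chr6:142571615-142571864, minus strand): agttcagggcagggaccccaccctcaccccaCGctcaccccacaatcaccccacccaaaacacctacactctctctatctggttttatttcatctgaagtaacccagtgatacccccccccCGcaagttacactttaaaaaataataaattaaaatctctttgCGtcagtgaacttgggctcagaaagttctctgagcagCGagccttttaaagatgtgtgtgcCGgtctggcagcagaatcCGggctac
Kcnj15 (chr16:95257308-95257557, plus strand): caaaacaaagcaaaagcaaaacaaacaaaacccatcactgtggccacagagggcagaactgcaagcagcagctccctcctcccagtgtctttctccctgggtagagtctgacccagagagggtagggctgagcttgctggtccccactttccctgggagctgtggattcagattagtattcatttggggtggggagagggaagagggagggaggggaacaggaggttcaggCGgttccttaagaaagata
These stretches held 31 CpGs at Kcna3, 3 at Kcna5 and 0 at Kcna10. They held 17 at Kcnj10, 6 at Kcnj8 and 1 at Kcnj15. The peak at the start was 2704 bp wide at Kcna3 and 1371 bp at Kcna5. It was 2993 bp wide at Kcnj10 and 1768 bp at Kcnj8.

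Every potassium channel locus held at least 1 peak. A locus is the gene span with 50 kb on each side, and any peak overlapping it by 1 bp or more was counted. Of all protein-coding genes, 85.9% had a peak in their locus. From their lengths alone, 93.4% of the members would have had one. With 84 of 84 members, the exact 95% binomial interval of the share ran from 95.7% to 100% (Clopper-Pearson, which covers counting only). The members held a median of 9 peaks, with a range from 1 at Kcnv1 to 31 at Kcnq1, against a median of 6 over all protein-coding genes. Counted once each, 829 peaks lay at these loci, or 0.951% of the list. Flanks held 58.1% of the counted peaks, and 52.2% of the flank peaks lay inside another protein-coding gene.

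The most peaks were found at genes of very different channel types. Kcnq1, which encodes a slowly activating voltage-gated subunit best known from heart and inner ear, had 31, and Kcnd3, which encodes an A-type voltage-gated subunit, had 30. Kcnj10, the main glial inward rectifier gene, had 27. There were 26 each at Kcnma1, the large-conductance calcium-activated channel gene, and Kcnn3, a small-conductance calcium-activated channel gene. Kcnj9, the neighbour of Kcnj10, had 22 peaks, Kcnab2, a voltage-gated beta subunit gene, 21 and Kcnn1 19. Kcnh2 of the Erg type, Kcnj6 of the G protein-gated rectifiers and the two-pore-domain gene Kcnk10 had 18 each. At least 25 peaks were present at 5 members (5.95%), against 2.31% of all protein-coding genes.

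**Figure D1:**
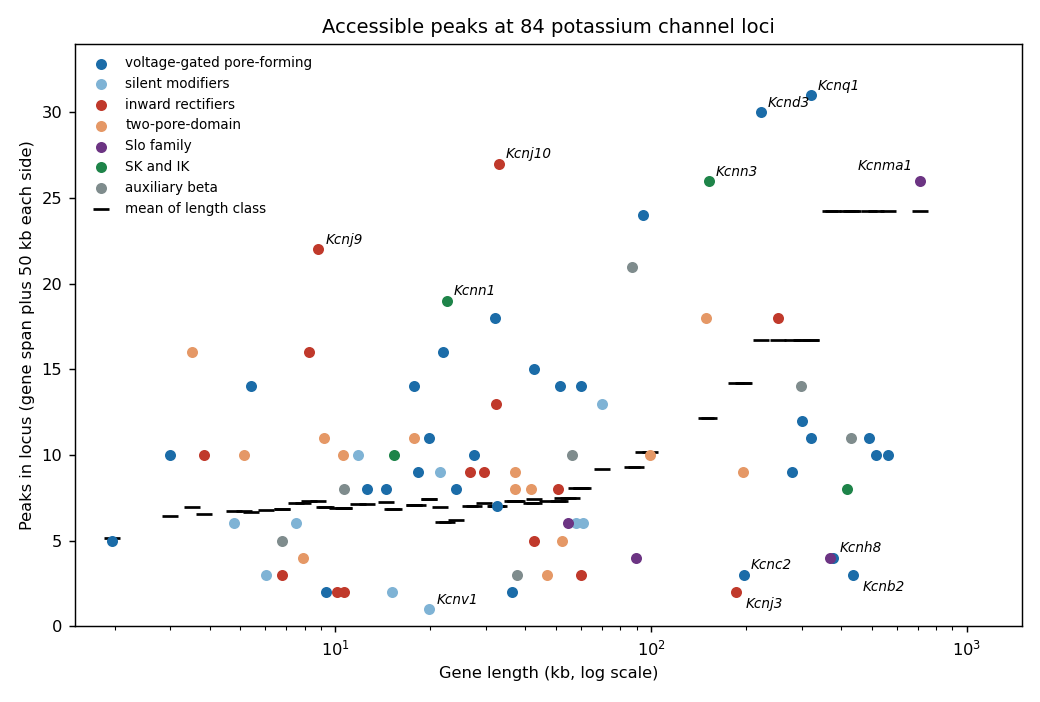
Peaks in the locus of each of the 84 potassium channel genes (vertical axis, number of peaks) against gene length (horizontal axis, kb, log scale), coloured by group of subfamilies. Black dashes give the mean of protein-coding genes in the same length class, from 5.14 at Kcna3 to 24.2 in the longest class, and the longest members lie mostly under them while Kcnj10, Kcnj9 and Kcnn1 lie far above.

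Gene length was taken into account by dividing each count by the mean of protein-coding genes in the same of 50 length classes. The longest class had no upper limit, so length was matched only loosely there. It held Kcnt2, of 368389 bp, and also Dpp10, of 1513678 bp, both set against a mean of 24.2. Kcnab1, Kcnb2, Kcnd2, Kcnh7, Kcnh8, Kcnma1, Kcnn2 and Kcnq5 were in this class too. This ratio had a median of 1.10 over the members, with quartiles of 0.454 and 1.53, against a median of 0.854 over all protein-coding genes. Summed over all members, 861 peaks stood against 859.9 from the class means, a ratio of 1.001. The sum stood at 0.672 for members of at least 100 kb and at 1.29 for shorter ones. A ratio of at least 2 was reached by 12 of 84 members (14.3%, 95% interval 7.61 to 23.6), against 10.5% of all protein-coding genes. A ratio of at most 0.5 was found for 22 members (26.2%, interval 17.2 to 36.9), against 31.2%. In this count both shares were near those of all genes. When each peak was assigned to the closest gene end only, the counts became 20 (23.8%, against 11.7% of all genes) and 12 (14.3%, against 48.4%). With classes of length and gene neighbours they were 12 (against 10.0% of all genes) and 12 (against 29.5%). Inside the gene span, 7 members had no peak (8.33%, interval 3.42 to 16.4), against 26.7% of all protein-coding genes. The lengths of the members alone gave 14.9%, a share inside the interval. The 7 were Kcnd1, Kcnj1, Kcnj14, Kcnk16, Kcnk18, Kcnmb1 and Kcnv2.

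Kcnj10 and its neighbour Kcnj9 had 2 of the 3 highest ratios. Kcnj10 (chromosome 1, 172341210 to 172374085) had 27 peaks, 3.84 times its class mean. Kcnj9 (172320508 to 172329322), which encodes a G protein-gated rectifier, had 22, or 3.01 times. The loci shared 20 peaks, so these are largely the same peaks. The widest, of 6203 bp from 172309349 to 172315552, lay at the neighbouring gene Igsf8. Within Kcnj10 itself there were 7 peaks, among them 2993 bp at the start and 2958 bp from 172349095.

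The other high ratios differed in how many of the peaks lay inside other genes. Kcnn1 (chromosome 8, 70843158 to 70865691) had 19 peaks, or 3.13 times, and 13 of them lay inside another of the 7 protein-coding genes of its locus. Kcnk7, a two-pore-domain gene without known current, had 16 peaks (2.30 times), 15 of them inside other genes. Its only gene-end peak was 43 bp wide. Kcnc4, which encodes a fast voltage-gated subunit, had 16 (2.64 times), Kcnh2 18 (2.56 times) and Kcnab2 21 (2.26 times). In the gene span itself lay 3 of the peaks at Kcnc4 and 7 of those at Kcnh2. Inside another gene lay 8 of the 16 at Kcnc4, 6 of the 18 at Kcnh2 and 14 of the 21 at Kcnab2. Kcnj10, Kcnc4 and Kcnh2 were at or above 2 under all 11 alternative settings. When peaks were assigned to the closest gene end only, Kcnn1 came to 1.18, Kcnab2 to 1.53 and Kcnk7 to 1.42. Kcnk7 also came to 1.35 in the span only and to 1.69 with classes of length and neighbours.

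Across members the ratio went together with the number of other protein-coding genes in the locus. Spearman's rho was 0.577 over the 84 members and 0.348 over all protein-coding genes, given as a description, since neighbouring loci share peaks and all come from the same list. The members had a median of 1.5 such neighbours against 3 over all genes. Among the members themselves, 6 pairs of neighbours shared peaks.

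The 8 lowest ratios belonged to channel genes with 1 to 4 peaks in the locus, of which 1 each lay at a gene end or annotated start. Kcnb2, a delayed rectifier gene, spans 436827 bp on chromosome 1 (15286925 to 15723751) and had 3 peaks, 0.124 times its class mean of 24.2. These were 1748 bp at one gene end and 2 peaks of 347 and 216 bp far inside the gene. Kcnv1, a silent subunit gene, had a single peak in its whole locus, of 1277 bp at the gene end (ratio 0.135). Kcnj3, which encodes a G protein-gated rectifier of neurons, had 2 (0.141 times), of 2944 bp over its annotated start and 287 bp. Kcnh8 and Kcnt2, a voltage-gated and a sodium-activated channel gene, had 4 each (0.165 times), and Kcnc2, a fast voltage-gated gene of interneurons, had 3 (0.212 times). Kcna4 and Kcna1, both of the Shaker type, had 2 peaks each, with ratios of 0.274 and 0.287. At Kcna1 the peak at the gene end was 3820 bp wide. Kcnb2, Kcnh8, Kcnt2 and Kcnc2 were at or under 0.5 under all 11 alternative settings, whereas Kcna4 stood at 3.16, Kcna1 at 0.9498, Kcnj3 at 0.851 and Kcnv1 at 0.711 when peaks were assigned to the closest gene end only. In the span only, Kcna1 stood at 0.897 and Kcnv1 at 0.669, and with classes of length and neighbours Kcna1 stood at 0.541.

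Among the longest channel genes, peak counts relative to length were low under most settings but not all. Of the 21 members of at least 100 kb, a limit chosen after the values were seen, 10 (47.6%, interval 25.7 to 70.2) had a ratio of at most 0.5, against 26.7% of all protein-coding genes of that length, a share inside the interval. Their median ratio was 0.539, against 0.866. Only Kcnn3 reached 2 (1 of 21 or 4.76%), against 9.19%, and Kcnq1, Kcnd3, Kcnk10, Kcnj6 and Kcnma1 also lay above 1. The 63 shorter members had a median ratio of 1.25, against 0.854 for all shorter genes, and 11 of them (17.5%) reached 2, against 10.6%. With 10 length classes, or with classes of length and neighbours, 5 of the 21 long members were at most 0.5, against 26.5% of all long genes under both settings. The count was then not above that of all long genes. It was 9 with a log-linear fit on locus length (against 23.8%) and 12 in the span only (against 30.2%). It was 11 with a flank of 10 kb (against 30.1%), 9 with a flank of 100 kb (against 22.9%) and 7 with nearest gene ends (against 32.1%). All 21 had a peak inside the gene span, which only 2.10% of all long genes lacked. A gene-end peak was found at 19 of them (90.5%), against 84.3% of all long genes.

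Some relatives within a subfamily differed widely. The 4 pairs drawn in the map of peak positions were chosen after their values were seen. Kcnc1, of 42488 bp, had 15 peaks in its locus, 5 of them in the span. Kcnc2, of 196407 bp, had 3, all in the span. Kcnd3, of 222113 bp, had 30 (19 in the span). Kcnd2, which encodes another A-type subunit and spans 514460 bp, had 10 (8 in the span). In the small-conductance family Kcnn3, of 152331 bp, had 26 (20 in the span) and Kcnn2, of 417138 bp, 8 (7 in the span). Per 100 kb of locus, the counts with flanks were 10.5 against 1.01 for the Kcnc genes, 9.31 against 1.63 for Kcnd and 10.3 against 1.55 for Kcnn. In these 3 pairs the longer gene had fewer peaks, and each of the 6 genes had a peak of 2322 bp or more at a gene end. In the inward rectifier pair, Kcnj10, of 32876 bp, had 27 peaks, 7 of them in the span. Kcnj3, of 186348 bp, had 2, both in the span. Per 100 kb of locus, this pair had 20.3 against 0.699.

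**Figure D2:**
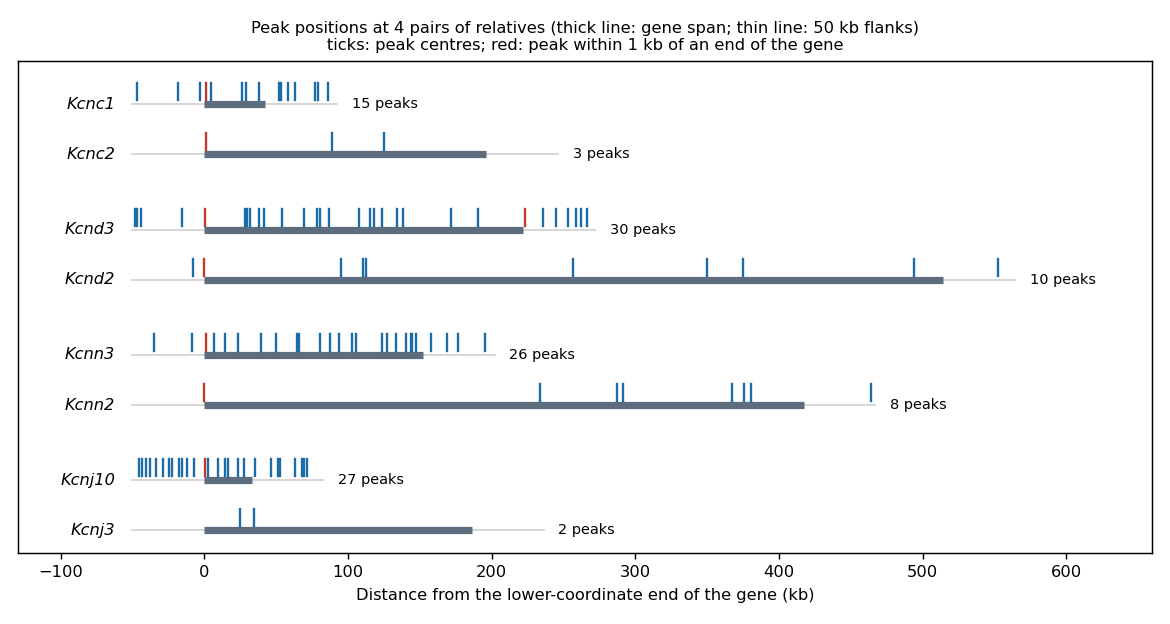
Positions of peaks (ticks at peak centres) along 4 pairs of potassium channel genes, in kb from the lower-coordinate end of each gene, with the gene span as a thick line and the 50 kb flanks as thin lines. Red ticks mark peaks within 1 kb of a gene end. Kcnj3, of 186348 bp, shows 2 ticks, whereas Kcnj10 shows 27, of which 7 lie in its span.

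Kcnma1 was the longest member and had many narrow peaks. Its span of 712823 bp on chromosome 14 (23292288 to 24005110) held 24 peaks, and 2 more lay in the flanks, a ratio of 1.07. Only 3 of the 26 were wider than 565 bp, the median of the list, and the median width in the span was 438 bp. Counting only peaks wider than that median gave a ratio of 0.288. The widest, 2093 bp, lay over the annotated start. At Kcnq1 17 of 31 peaks exceeded 565 bp and at Kcnd3 17 of 30.

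Other transcripts lay under some of these peaks. Of the Kcnq1 peaks, 19 lay in the gene span and 12 in the flanks, where the imprinted neighbour Cdkn1c had a peak of 3185 bp. A peak of 1857 bp inside Kcnq1 covered the upper end of Kcnq1ot1, the imprinted antisense RNA of this gene. The start peak of Kcnd3, of 3705 bp, also covered one end of the antisense gene Kcnd3os, and that of Kcnmb4, of 2918 bp, covered all of Kcnmb4os2. Accessibility carries no strand, so the transcripts cannot be told apart.

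Subfamilies were then compared within 7 groups by channel type, again relative to genes of similar length. The 4 small- and intermediate-conductance genes (Kcnn) had the highest median ratio, 1.80, with Kcnn2 at 0.330 and Kcnn1 at 3.13. The 30 voltage-gated pore-forming genes had a median of 1.19, the 14 two-pore-domain genes 1.17 and the 15 inward rectifier genes 1.10. Medians were lower for the 7 auxiliary beta subunit genes at 0.838, the 10 silent modifiers at 0.789 and the 4 Slo genes at 0.616. The ranges overlapped among all groups. Members are not replicates, so no test was made.

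**Figure D3:**
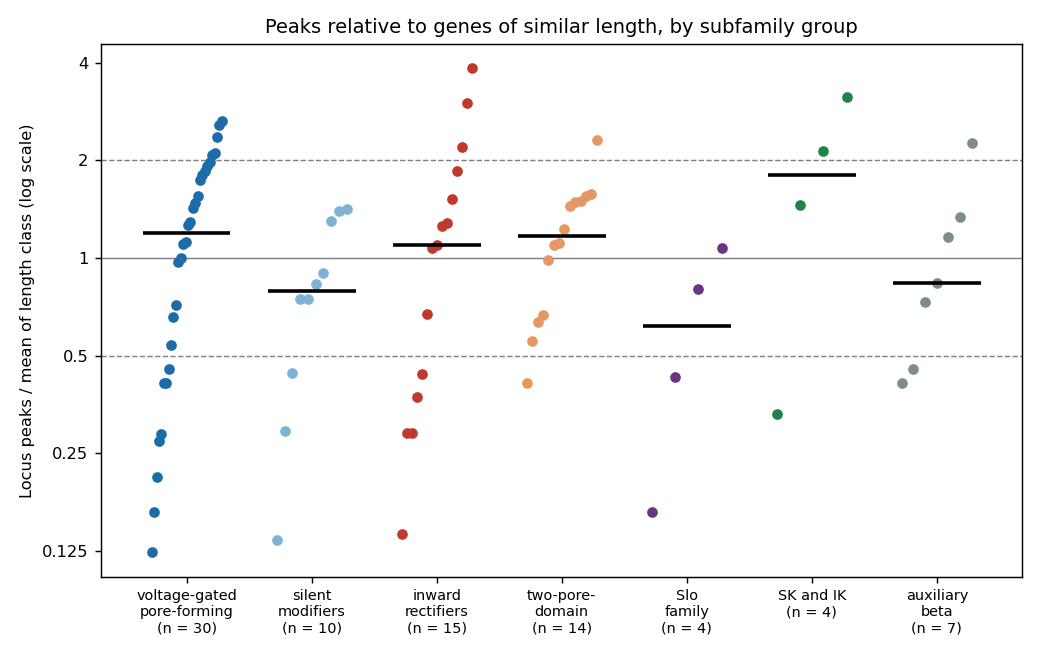
Peaks in the locus divided by the mean of protein-coding genes in the same length class (vertical axis, log scale) for each potassium channel gene, by group of subfamilies. Points are genes, black bars medians, and dashed lines mark 2 and 0.5; the points of all groups overlap, and the group medians run from 0.616 for Slo genes to 1.80 for the calcium-activated SK and IK genes.

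Ratios were also formed from sums of peaks over sums of class means. The ratio was 1.28 for SK and IK genes (95% Poisson interval 0.982 to 1.64, which covers counting only and treats peaks as independent). It was 1.204 for inward rectifiers (1.02 to 1.41) and 0.914 without Kcnj9 and Kcnj10, which share most of their peaks. It was 1.15 for two-pore-domain genes (0.961 to 1.36), 0.970 for voltage-gated genes (0.870 to 1.08), 0.914 for beta subunits (0.715 to 1.15), 0.834 for silent modifiers (0.639 to 1.07) and 0.613 for Slo genes (0.438 to 0.834). Only SK and IK genes kept a sum above 1, and only Slo genes one below 1, under all 11 alternative settings. SK and IK genes ranged from 1.04, in the span only and thus close to 1, to 1.625 with bases of peak. Slo genes ranged from 0.333 to 0.839. Silent modifiers stood at 1.34 when peaks were assigned to the closest gene end only. Of the 4 Slo genes, Kcnma1 stood at 1.07, Kcnt1 at 0.803, Kcnu1 at 0.430 and Kcnt2 at 0.165. Kcnt2 held 4 of their 40 peaks but 24.2 of the 65.27 from class means.

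Among voltage-gated genes the Kcnc and Kcnq subfamilies had the highest medians. The 4 Kcnc genes, which encode subunits of fast-spiking neurons, had a median ratio of 2.03, from 0.212 at Kcnc2 through 2.08 at Kcnc1 to 2.64 at Kcnc4. The 5 Kcnq genes, which include the M-current gene Kcnq3, had a median of 1.74. Kcnq1 had 31 peaks (1.86 times), Kcnq3 12 (0.718 times) and Kcnq5 10 (0.412 times). The 8 Kcnh genes had a median of 0.963, from 4 peaks at Kcnh8 to 18 at Kcnh2. The 8 Kcna genes ranged from 2 peaks at Kcna1 and Kcna4 to 14 at Kcna7, a subunit gene of muscle, where 12 of the 14 lay inside other genes. Kcnd1, the only member on the X chromosome, had 8 peaks and none inside its span.

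Silent modifiers do not form channels alone. Their loci held 13 peaks at most, at Kcng2, and none reached a ratio of 2. In the Kcns subfamily Kcns1 and Kcns3 had 6 each and Kcns2 had 3, while the 4 Kcng genes ranged from 6 at Kcng3 to 13. Kcnf1 had 6. Besides Kcnv1, Kcnv2, a photoreceptor subunit gene, had only 2 peaks, neither of them inside the gene.

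Inward rectifiers spanned the widest range of ratios of the 7 groups, from 0.141 at Kcnj3 to 3.84 at Kcnj10. Kcnj2, the classic strong rectifier gene, had 2 peaks, of which 2233 bp lay over its start, and shared both with its neighbour Kcnj16, which had 3. Kcnj4, a strong rectifier gene of striatal and other forebrain neurons, had 13 (1.85 times) and Kcnj6 18 (1.08 times). The ATP-sensitive channel genes Kcnj11 and Kcnj8 had 10 and 3. Kcnj14 had 16 peaks, none of them inside its span, and 13 lay inside other genes such as Cyth2, Lmtk3 and Grin2d.

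Two-pore-domain genes ranged from 3 peaks at Kcnk9 to 18 at Kcnk10. Kcnk2, a mechanically gated channel gene, had 9 (0.635 times) and Kcnk3, an acid-sensitive channel gene, also 9 (1.23 times). In the Slo family Kcnt1 had 6 and Kcnu1, which encodes a sperm channel, 4. Of the beta subunit genes, Kcnab1, of 429014 bp, had 11 peaks (0.454 times), Kcnmb2 14 (0.838 times), Kcnmb4 10 (1.34 times) and Kcnmb3 3 (0.410 times).

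Most potassium channel genes had a peak at a gene end, taken as within 1000 bp of either end of the span. This held for 71 of 84 members (84.5%, interval 74.99 to 91.5), against 67.3% of all protein-coding genes. Members are longer than most genes, and their length classes alone gave 64.6 genes or 76.9%, a share that lies inside the interval. With a window of 100 bp the share was 71.4%, against 61.6% of all genes. At 15 members both ends had a peak (17.9%), against 14.8%. The members' 87 gene-end peaks were 1768 bp wide at the median. The 20419 peaks of the list at an end of any annotated gene, non-coding genes included, had a median of 1406 bp. That set is thus wider than protein-coding genes. The 283 other peaks inside member spans had a median of 486 bp, against 488 bp for all peaks away from any gene end. The 2 sets are not alike, since the 283 still hold peaks at starts inside the span, such as 2944 bp at Kcnj3.

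Annotated starts were found for 60 members, with 78 starts in all. A peak lay within 1000 bp of a start in 51 of the 60 (85.0%, interval 73.4 to 92.9), against 66.6% of protein-coding genes with an annotated start. Peaks lay at the start side of the span in 47 of the 60 (78.3%, against 64.0% of all protein-coding genes) and at the far side in 12 (20%, against 16.95%). These shares were not adjusted for gene length. At Kcnj3, Kcnj16, Kcnk2 and Kcnk13 the peak was at an annotated start inside the span and not at a gene end. The peak near the Kcnj16 start was only 168 bp wide.

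Just 9 members had neither a gene-end peak nor a peak at an annotated start. They were Kcna10, Kcnj1, Kcnj15, Kcnk16, Kcnk18, Kcnmb1, Kcnmb3, Kcnu1 and Kcnv2. As background, Kcnj1 and Kcnj15 are known from kidney, Kcnk16 from pancreatic islets, Kcnk18 from sensory ganglia, Kcnmb1 from smooth muscle, Kcnu1 from sperm and Kcnv2 from photoreceptors. Members known from other organs were also among those with a gene-end peak, such as Kcnq1 and Kcna7, and the 2 sets were not compared for this. For 2 of them, Kcnu1 and Kcnv2, only gene ends could be examined. Their loci were not empty. Kcnk18 had 11 peaks, none inside the gene, and the widest, of 9538 bp, lay at the neighbouring homeobox gene Vax1. Kcnj1 had 9 peaks, all in its flanks, and shared 5 with its neighbour Kcnj5. Kcnmb1 had 8, and 4 of them lay inside Kcnip1.

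Starts with a peak held more CpGs than those without. The 300 bp promoter window, which also holds the first 50 bases of the transcript, had a median of 16 CpGs at the 63 member starts with a peak and 3 at the 15 without. As observed over expected CpG, the medians were 0.535 and 0.165. Over all protein-coding starts the same medians were 0.748 with a peak and 0.171 without, so the median at channel starts with a peak was below that of all starts with a peak. A value of at least 0.6 was found at 25 of the 63 (39.7%), against 69.7% of all starts with a peak. The 63 starts came from 51 genes, and starts of 1 gene can share a peak, as the 4 at Kcnc2 did. Median GC content was 62.7%, against 61.3%. Of the 15 member starts without a peak, 0 reached 0.6, against 3.33% of all starts without a peak. Several CpG-poor starts lay under wide peaks, such as Kcnf1 at 0.145 with 1587 bp and Kcnc2 at 0.145 with 2622 bp.

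**Figure D4:**
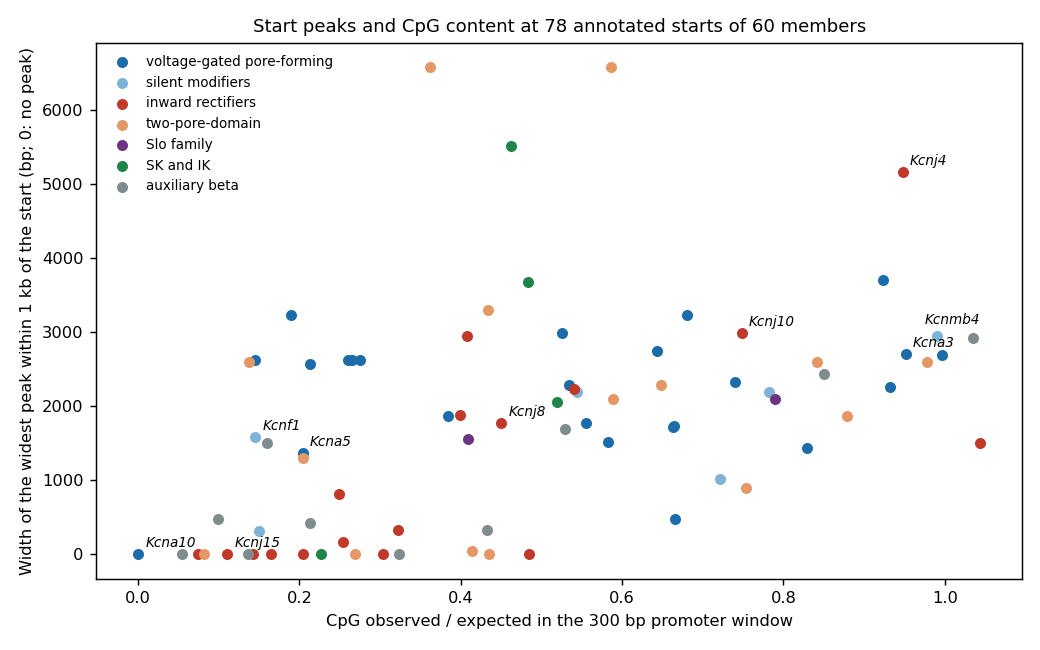
Width of the widest peak within 1 kb of each of 78 annotated starts of 60 potassium channel genes (vertical axis, bp, with 0 where there is none) against observed over expected CpG in the 300 bp promoter window (horizontal axis, ratio). Starts of 1 gene can share a peak; all starts without a peak lie under 0.6, and starts with a peak spread from 0.0992 to 1.04.

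Core motifs of 2 families of striatal regulators were searched in these windows. The homeodomain core TAATTA, searched on both strands as bound by DLX factors, was in none of the 78 member windows and in 4.53% of all protein-coding ones, or 2.53% of those at starts with a peak. The MEIS core TGACAG, searched on both strands, was in 13 (16.7%), among them Kcnj6, Kcnh2 and Kcna7, against 18.7%. These are matches of letters in a window and not binding sites.

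Very broad peaks were found at 3 members, a share near that of all genes. A peak of the broadest 1% of the list, at least 4480 bp wide, lay within 1 kb of these (3.57%, interval 0.743 to 10.1), against 3.95% of all protein-coding genes. All 3 covered an annotated start: Kcnk10 with 6580 bp (chromosome 12, 98571992 to 98578572), Kcnn1 with 5519 bp (chromosome 8, 70861473 to 70866992) and Kcnj4 with 5159 bp (chromosome 15, 79502836 to 79507995). Just under the limit were 4438 bp inside Kcnn2 and 4310 bp at an end of Kcnh3, an Elk-type gene of forebrain neurons. The next widest gene-end peaks were 3820 bp at Kcna1, 3775 bp at Kcnh2, 3705 bp at Kcnd3 and 3675 bp at Kcnn3. With the broadest 5% of peaks the count rose to 30 members (35.7%), against 17.3% of all genes. These shares were not adjusted for gene length, and members are longer, with a median of 36620 bp against 17220 bp.

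Partners and relatives of these channels outside the naming rule were examined the same way. All 22 listed genes for further auxiliary subunits and related cation channels were found, with Kcne5 entered as Kcne1l, and each had a peak in its locus. The median was 10 peaks and the median ratio 1.35. Of the 22, 17 had a peak at a gene end, against 67.3% of all protein-coding genes. A ratio of at least 2 was found for 3 (against 10.5%) and one of at most 0.5 for 4 (against 31.2%). The most peaks lay at Kcnip1 with 34 and Dpp6 with 32, which encode auxiliary subunits of the A-type channels formed with Kcnd2 and Kcnd3. Abcc8, the sulfonylurea receptor partner of Kcnj11, had 17, and Kcnip3 and Kcnip4 had 15 each. Dpp10, a relative of Dpp6, had 7, or 0.289 times its class mean.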

How the data were processed

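Accessible chromatin was measured in 2 wild-type libraries. Per the submitters' processing notes, mm10 was the build, with Signac and version 1.2.0 of Cell Ranger ATAC among the tools. The peak caller, any pooling of libraries and the handling of doublets were not given in the sources used here. The authors deposited 1 list of peak positions and no other measure, so depth is unknown. Coordinates follow the list, which does not state whether starts count from 0 or 1. The smallest gap between peaks of the list was 501 bp. Whether closer sites were joined is not stated, and counts and widths of peaks would depend on it.

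Gene spans were taken from RefSeq on GRCm38.p6, the assembly behind mm10. Of 49997 entries, 402 were left out, either on scaffolds or repeating a symbol. The table gives spans without strand, and starts came from RefSeq promoters. Peaks were counted with Python 3.11.15, pandas 2.3.3 and statsmodels 0.14.6 (for a log-linear alternative). Expected counts were means of 50 classes of gene length. The ratio was tried on randomly placed positions, with the counts of some genes raised by known folds. This does not test how real peaks, which have widths, are counted. No test was made, since no samples can be compared.

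Members and lists were chosen with earlier results of these data known. Named genes are those with most locus peaks, the highest and lowest ratios, the broadest peaks and the extremes of each subfamily. Some other named members, the pairs, the printed promoters and the 100 kb limit were chosen after their values were seen. Some genes that this rule names are not reported here. Alternatives were other flanks, windows, peak sets, length classes and assignments. Counting in the span only and classes that also use neighbours were chosen after seeing the data.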

Additional observations from a re-analysis of the deposited data

How the results depend on the processing

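The median length ratio of the members, 1.10, ranged from 0.808 (bases of peak) to 1.15 (distal peaks only) over 11 alternatives. Median locus peaks, 9, became 3 in the span only, 4 with a flank of 10 kb, 15 with a flank of 100 kb, 4 with peaks wider than the median width, 7 with distal peaks only and 6 with each peak given to the nearest gene end. Members at a ratio of at least 2, 12 in number, became 19 in the span only and 20 with nearest ends. Those at most 0.5, 22 in number, became 12 with nearest ends and 12 with neighbour classes. The voltage-gated ratio, 0.970, was 0.758 in the span only, 0.829 with a flank of 10 kb, 1.12 with 10 length classes and 1.14 with neighbour classes. Silent modifiers, at 0.834, gave 0.602 with wider peaks, 0.606 with bases of peak and 1.34 with nearest ends. In the span only, inward rectifiers gave 0.970 and two-pore-domain genes 0.922. Slo genes gave 0.333 with wider peaks and 0.839 with 10 length classes. Gene-end peaks were present at 71.4% with a window of 100 bp, and broad peaks at 30 members with the broadest 5%. A further 102 alternative values stayed within the 95% interval of the main value or, for counts of members, within 1.5 times. The cause of these changes was not tested. No paired analysis was possible because the peak list holds no samples. Depth is unknown, so the absence of a peak cannot be read as closed chromatin.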
